A study of Mus musculus with 25 samples.

Results

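Microglia sorted from transplanted type 1 tumours were compared with microglia sorted from type 1 tumours that had arisen spontaneously, in mouse models of glioblastoma, an aggressive tumour of the brain. The members were chosen by their labels alone: 3 libraries of transplanted tumours (replicates 1, 2 and 4) and 3 libraries of spontaneous tumours (replicates 1, 2 and 3), 6 of the 25 labelled samples and of the 21 with values in the deposited table. Both groups were labelled as tumour tissue, tumour type 1 and cell type microglia, and differed in the label of the model. The other libraries were microglia of type 2 tumours and monocyte-derived macrophages (MDM) of both tumour types. What type 1 means, the strain, age and genotype of the hosts, the grafted cells and the sort gate are not given in the sources used here. No source used here says whether each library is a mouse of its own; the p-values therefore reflect library-to-library spread only, part of which may be technical.

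Microglia are the resident macrophages of the brain. In a glioblastoma they mix with macrophages that enter from the blood, and both can take up cell debris, present antigen on MHC class II molecules and secrete factors that act on tumour cells and lymphocytes. Interferons are cytokines that change the gene expression of macrophages. Type I interferons switch on antiviral genes through the interferon-stimulated response element. Interferon gamma, made mainly by T and NK cells, acts through the gamma-activated site and raises guanylate-binding GTPases, the chemokine Cxcl9 and MHC class II genes.

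Values below are normalised read counts, given for transplanted replicates 1, 2 and 4 and for spontaneous replicates 1, 2 and 3 in that order. Fold changes are transplanted over spontaneous on the log2(normalised count + 1) scale with ± the standard error of the fit, and called genes are those with an adjusted p (Benjamini-Hochberg, limma-trend, 17216 genes) under 0.05. The libraries held 30787372 to 50365607 reads and 16956 to 18581 genes with a read. Tmem119, a surface protein specific to microglia in the brain, stood at 186798, 212630 and 152476 in transplanted libraries and at 168752, 123024 and 197594 in spontaneous ones, so the defining marker was high in all 6. Y-linked genes and Xist showed 2 of 3 transplanted and 1 of 3 spontaneous libraries to be male. Spontaneous replicate 3 stood apart from the other 11 microglia libraries on the first principal component (173.83 against -83.42 to 60.37).

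Of the 17216 genes, 46 were called (0.267%), 28 higher in transplanted tumours (0.163%) and 18 lower (0.105%). In all 46 the groups did not overlap, as was also so for 7.49% of all tested genes in the higher direction and 6.65% in the lower one. An unadjusted p under 0.05 was reached by 2041 genes (11.9%). The genes called higher included the interferon-inducible GTPases Gbp2b and Gbp8, the inflammasome genes Nlrp1a and Nlrp1c-ps, the receptor genes Tlr12, Esr1 and Gpr165, the enzyme gene Gnpda1 and a set of genes known from lymphocytes. Those called lower included Spp1, Arg1, Chil3, Siglec1, Cxcl14, Gdf3 and Gdpd3.

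The count moved with the libraries included: 17 genes were called without transplanted replicate 1, 19 without replicate 2, 95 without replicate 4, and 2 without replicates 1 and 2 together (1 of the 2 among the 46). With sex as a covariate 20 were called, 14 higher and 6 lower, all of them among the 46. The 6 falls were Gdpd3, Thg1l, 9330179D12Rik, Siglec1, Spp1 and LOC118567460. The genes called in each of the 6 fits that left out a single library were Gnpda1, Gbp2b, Nlrp1a, Nlrp1c-ps, Esr1 and Tlr12 on the higher side, and Gdpd3, Thg1l and 9330179D12Rik on the lower side. Each of the other called genes lost its call in at least 1 of the 6 fits, with an adjusted p of up to 0.187.

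**Figure D1:**
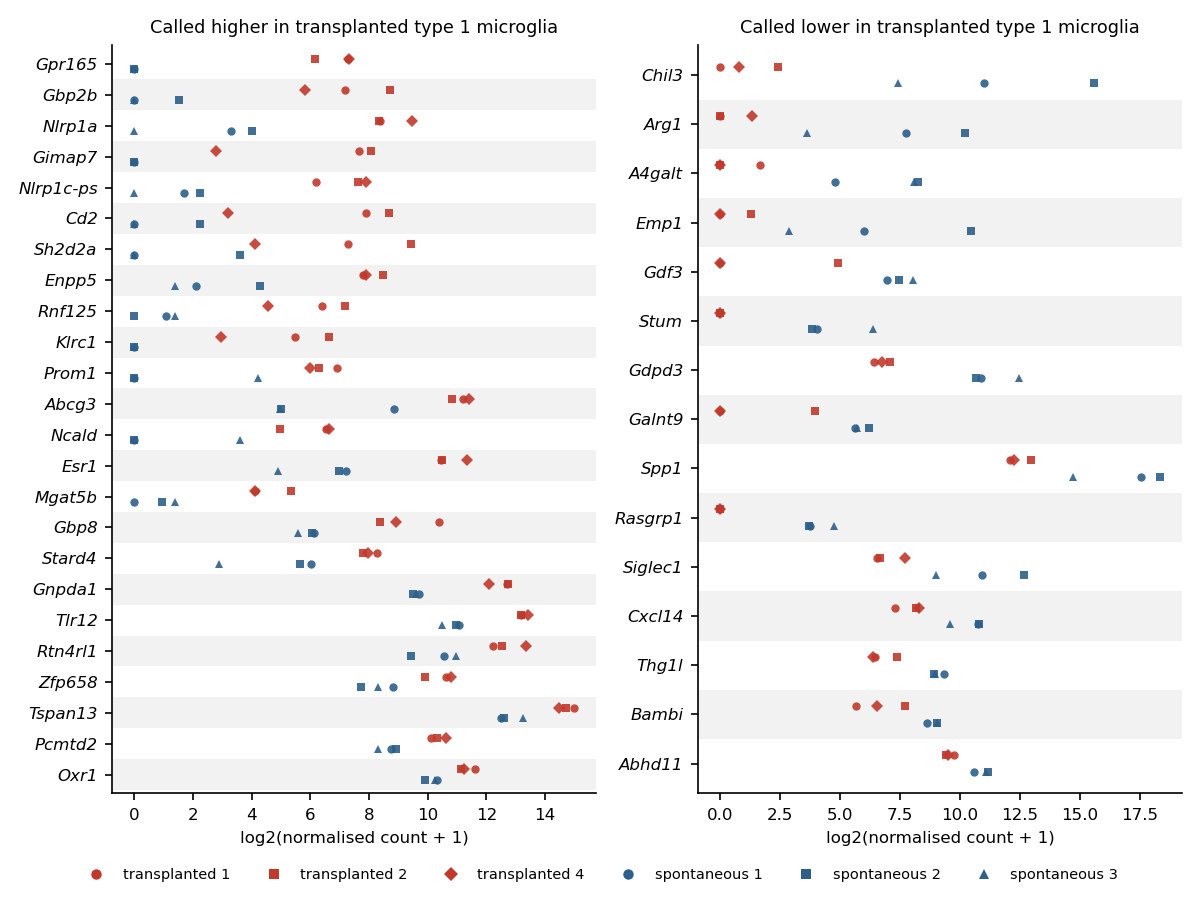
Level of each called gene with a name in each type 1 microglia library, on the log2(normalised count + 1) scale; red marks are transplanted libraries (upper in each row), blue marks spontaneous ones, and the shape gives the replicate. In every row the red marks lie to 1 side of the blue ones; rows at left are higher and rows at right lower in transplanted tumours.

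Among the calls were the guanylate-binding proteins Gbp2b and Gbp8, GTPases that coat and help destroy intracellular pathogens. Gbp8 is among the genes fixed for the interferon gamma response and Gbp2b is not. The part of interferon gamma in their levels was not tested. Gbp2b was found at 145, 425 and 55.2 normalised counts in transplanted libraries, against 0, 1.87 and 0 in spontaneous ones. It was close to absent from spontaneous microglia, with 2 reads in all against 498. The ratio of the pooled levels was 218.5 (95% exact counting interval 60.18 to 1810), with adjusted p = 0.00355. Gbp8 stood at 1332, 330 and 485 in transplanted libraries, against 69.2, 65.4 and 46.7 in spontaneous ones. The lowest transplanted library was above the highest spontaneous one (log2 3.30 ± 0.53, adjusted p = 0.0115). Guanylate-binding proteins form a gene family, and reads may be split between similar members, so the assignment to a single gene is uncertain.

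Of the 20 genes fixed for the interferon gamma response, 19 were tested, 1 was called (Gbp8, against 0.267% of all genes), 17 had a positive and 2 a negative fold change, and the median log2 fold change was 1.12, beside 0 over all tested genes. Cxcl9, a chemokine that draws activated T cells, stood just outside the threshold: 6376, 6754 and 6060 in transplanted libraries, against 247, 1355 and 564 in spontaneous ones (3.48 ± 0.73, adjusted p = 0.0523). Gbp4 had 1427, 953 and 1187 in transplanted libraries and 134, 799 and 106 in spontaneous ones (2.37 ± 0.63, adjusted p = 0.125). The transcription factor Irf1 had 13276, 14666 and 8553 in transplanted libraries and 3667, 6588 and 4947 in spontaneous ones (1.27 ± 0.38, adjusted p = 0.173). None of these 3 overlapped between the groups, and in each the highest spontaneous library was replicate 2. In all, 6 of the 19 were higher without overlap and 0 lower, beside 7.49% and 6.65% of all tested genes. The summed level of the 20 genes overlapped between the groups. It was 81427, 77550 and 60144 in transplanted libraries, against 26601, 91652 and 39511 in spontaneous ones.

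The promoters of Gbp2b, which is not on the interferon gamma list, of Irgm2 and Irf1, which are, and of 2 type I interferon genes are shown because the medians of the 2 lists had opposite signs. Each run is the 250 bases before 1 transcription start per gene, the first listed in RefSeq on GRCm38.p6, 5′ to 3′ on the strand of the gene. The Gbp2b gene is placed from 142594816, so the end of its run lies inside the gene. Capitals mark matches on either strand to the interferon-stimulated response element, searched as GAAA, any 2 bases and GAAA again, or to the gamma-activated site, searched as TTC, any 3 bases and GAA. The genes were chosen after their values were seen, and matches may overlap each other.
Gbp2b (chr3:142594597-142594846, plus strand): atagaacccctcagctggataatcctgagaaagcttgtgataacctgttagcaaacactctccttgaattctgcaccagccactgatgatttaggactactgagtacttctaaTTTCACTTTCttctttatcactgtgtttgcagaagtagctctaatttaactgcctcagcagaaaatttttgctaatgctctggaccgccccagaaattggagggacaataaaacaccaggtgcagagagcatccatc
Irgm2 (chr11:58214727-58214976, plus strand): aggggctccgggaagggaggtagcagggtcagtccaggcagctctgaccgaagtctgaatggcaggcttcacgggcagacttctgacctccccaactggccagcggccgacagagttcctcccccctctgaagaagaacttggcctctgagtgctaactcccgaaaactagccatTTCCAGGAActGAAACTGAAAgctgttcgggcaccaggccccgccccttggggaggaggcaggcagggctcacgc
Irf1 (chr11:53769764-53770013, plus strand): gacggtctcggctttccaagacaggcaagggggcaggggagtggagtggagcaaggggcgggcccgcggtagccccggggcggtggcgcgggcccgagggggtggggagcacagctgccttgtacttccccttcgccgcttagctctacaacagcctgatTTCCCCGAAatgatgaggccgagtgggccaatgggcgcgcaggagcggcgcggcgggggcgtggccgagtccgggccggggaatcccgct
Isg15 (chr4:156200819-156201068, minus strand): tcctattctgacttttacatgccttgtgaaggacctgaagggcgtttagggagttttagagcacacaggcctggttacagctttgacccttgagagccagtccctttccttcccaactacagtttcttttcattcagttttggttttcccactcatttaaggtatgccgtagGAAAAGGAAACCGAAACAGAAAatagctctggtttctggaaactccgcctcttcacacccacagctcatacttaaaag
Ifit3 (chr19:34583279-34583528, plus strand): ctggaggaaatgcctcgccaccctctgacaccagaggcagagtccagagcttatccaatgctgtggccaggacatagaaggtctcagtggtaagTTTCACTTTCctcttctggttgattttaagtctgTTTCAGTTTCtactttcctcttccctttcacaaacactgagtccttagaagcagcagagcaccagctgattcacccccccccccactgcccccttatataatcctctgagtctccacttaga

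Isg15 held 3 overlapping response elements beginning 78 to 66 bases before the start, and Ifit3 held 2. Irgm2, a GTPase that regulates other immunity GTPases, held a gamma-activated site at 75 bases and a response element at 64 bases before the start. Over 27025 genes with a promoter in the table, 3.04% held the response element and 7.18% the gamma-activated site in this window. The response element was found in 11 of 14 promoters of the interferon gamma list (78.6%) and in 10 of 21 of the type I list (47.6%). The gamma-activated site was found in 7 of 14 (50%) and in 3 of 21 (14.3%). The response element was thus in promoters of both lists, whose median differences had opposite signs. It was in 0 of 8 promoters of the MHC class II list, and the gamma-activated site in 1 of 8 (12.5%).

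MHC class II genes, whose products show peptides to helper T cells, had higher values in transplanted tumours without passing the test. Of 11 genes 0 were called, 8 had a positive fold change and 5 were higher without overlap, beside 7.49% of all tested genes. The median log2 fold change was 1.03, and 0.42 without transplanted replicates 1 and 2 and spontaneous replicate 2. H2-Ab1, a chain of the I-A molecule, stood at 210347, 214039 and 125541 in transplanted libraries, against 20035, 75222 and 25226 in spontaneous ones (2.41 ± 0.67, adjusted p = 0.14). H2-Aa, its partner chain, had 142183, 137696 and 80333 in transplanted libraries and 10588, 46782 and 13376 in spontaneous ones (2.63 ± 0.69, adjusted p = 0.125). Cd74, the invariant chain that guards the peptide groove, had 633502, 607937 and 317400 in transplanted libraries and 55690, 283995 and 76900 in spontaneous ones (2.22 ± 0.69, adjusted p = 0.187). The pattern over libraries was the same in all 3, with transplanted replicate 4 lowest of its group and spontaneous replicate 2 highest of its own. Transplanted replicates 1 and 2 were also the libraries with the most T and NK cell transcripts (4851 and 7279 summed normalised counts, against 1078 in replicate 4), whose part in these values was not tested. MHC class I genes had 0 of 16 called and a median of 0.21, which was -0.30 without the same 3 libraries and -0.24 without transplanted replicates 1 and 2.

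The type I interferon response had lower values in transplanted tumours, again with no call among its 32 genes. A negative fold change was found in 31 of 32, the median log2 fold change was -1.37, and 17 genes were lower without overlap, beside 6.65% of all tested genes. Irf7, the transcription factor that amplifies this response, had 4877, 8920 and 3260 in transplanted libraries, against 16569, 51909 and 27920 in spontaneous ones (-2.47 ± 0.67, adjusted p = 0.136). Mx1, a GTPase that blocks influenza virus, had 245, 248 and 439 in transplanted libraries, against 1171, 5604 and 1106 in spontaneous ones (-2.69 ± 0.77, adjusted p = 0.152). Oas2, a sensor of double-stranded RNA, had 158, 376 and 385 in transplanted libraries, against 1185, 5842 and 630 in spontaneous ones (-2.52 ± 0.72, adjusted p = 0.154). The groups did not overlap in these 3 genes.

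Spontaneous replicate 2 was the highest of the 6 libraries in 27 of the 32 type I interferon genes, and without it the median was -0.82. Without transplanted replicates 1 and 2 it was -1.66. Markers of monocyte-derived macrophages moved with this list: their median was -2.05, and spontaneous replicate 2 was highest in 29 of 34. Their part in the type I interferon values was not tested. Isg15, a ubiquitin-like antiviral protein, stood at 1356, 1627 and 1000.4 in transplanted libraries, against 1644, 8887 and 6335 in spontaneous ones (-1.80 ± 0.94, adjusted p = 0.468).

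**Figure D2:**
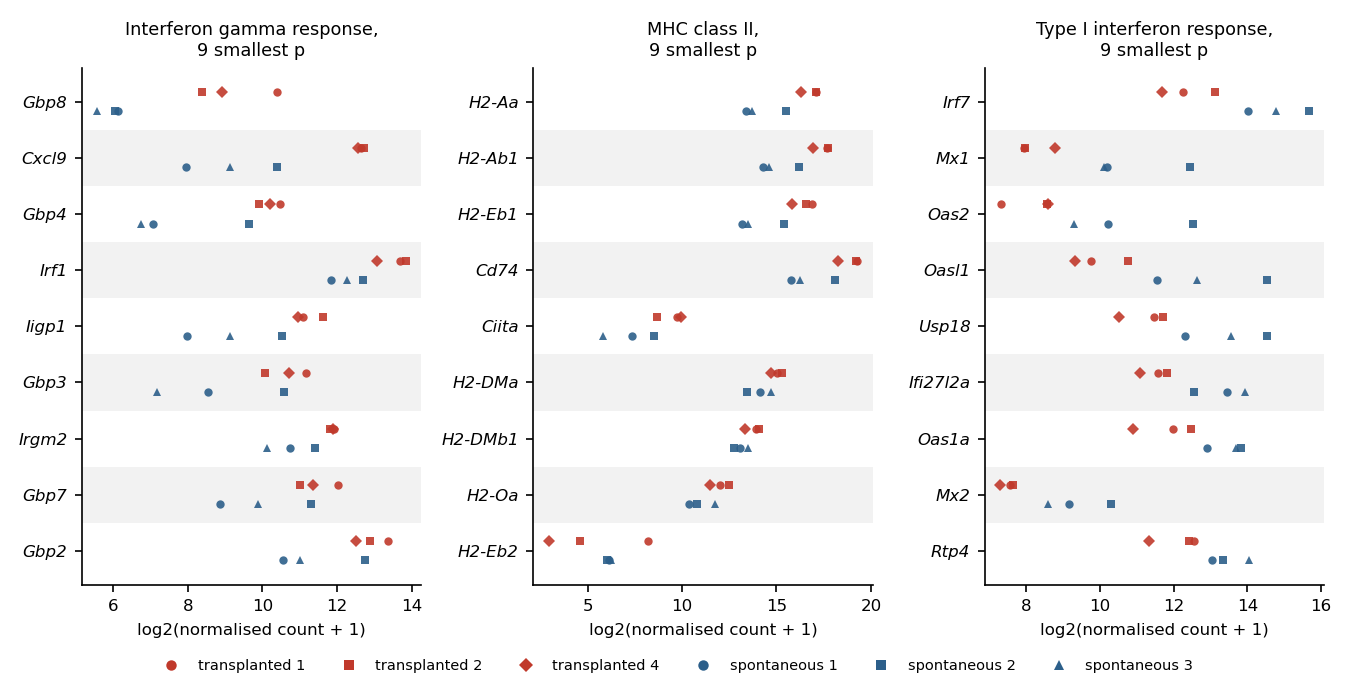
Level in each type 1 microglia library of the 9 genes with the smallest p in each of 3 lists, on the log2(normalised count + 1) scale; red marks are transplanted libraries (upper in each row), blue marks spontaneous ones. Red marks lie mostly right of the blue ones for interferon gamma and MHC class II genes and left of them for type I interferon genes; of the genes shown only Gbp8 was called.

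Among sensors of microbial products, the inflammasome gene Nlrp1a was called higher. Nlrp1a stood at 335, 327 and 699 in transplanted libraries, against 8.93, 15.0 and 0 in spontaneous ones (6.30 ± 0.87, adjusted p = 0.00355). Nlrp1c-ps, an annotated pseudogene of the same family, had 72.9, 198 and 237 in transplanted libraries, against 2.23, 3.74 and 0 in spontaneous ones (5.93 ± 0.83, adjusted p = 0.00355). The pair lies on chromosome 11 of GRCm38 (71091197 to 71144969 and 71242430 to 71285232 in RefSeq), 97461 bases apart, and as copies of one family they may share reads. Tlr12, which in mice detects a protein of Toxoplasma, had 9382, 9298 and 11003 in transplanted libraries, against 2151, 1982 and 1452 in spontaneous ones (2.42 ± 0.38, adjusted p = 0.00893). It was chosen here after its values were seen.

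Several genes of metabolism, membrane transport and signalling were called higher. Gnpda1, which turns glucosamine-6-phosphate into fructose-6-phosphate, had the smallest p with Gdpd3: 6666, 6889 and 4374 in transplanted libraries, against 842, 720 and 769 in spontaneous ones (2.92 ± 0.33, adjusted p = 0.000389). Esr1, which encodes oestrogen receptor alpha and was chosen after its values were seen, had 1407, 1444 and 2596 in transplanted libraries, against 148, 126 and 29.0 in spontaneous ones (4.39 ± 0.64, adjusted p = 0.00573). Both were separated by a wide gap, and both kept their call with sex as a covariate (adjusted p = 0.00122 for Gnpda1 and 0.00793 for Esr1). Gpr165, an orphan G-protein-coupled receptor on chromosome X, had 154, 70.0 and 160 in transplanted libraries and no read in any spontaneous one. Against a floor of 3 reads per library this was at least 34.9-fold higher (adjusted p = 0.0212).

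Abcg3, a member of the ATP-binding cassette transporters, had 2377, 1816 and 2713 in transplanted libraries, against 461, 30.8 and 30.6 in spontaneous ones (4.87 ± 0.88, adjusted p = 0.0252). It lies 29702 bases from Gbp8 on chromosome 5 of GRCm38 (104935057 to 104982811 and 105012513 to 105053609). Enpp5, of the ectonucleotide pyrophosphatase family, had 221, 359 and 238 in transplanted libraries, against 3.35, 18.7 and 1.61 in spontaneous ones (5.46 ± 1.09, adjusted p = 0.0411). Prom1, a membrane glycoprotein known as CD133 and used as a marker of neural stem cells, had 119, 77.3 and 61.9 in transplanted libraries and 0, 0 and 17.7 in spontaneous ones (4.98 ± 0.96, adjusted p = 0.0342). The calcium-binding Ncald had 91.3, 30.6 and 97.7 in transplanted libraries, against 0, 0 and 11.3 in spontaneous ones (4.84 ± 0.95, adjusted p = 0.0365). With sex as a covariate in limma-trend, Enpp5, Prom1 and Ncald lost their calls (adjusted p = 0.0615, 0.0579 and 0.0539). Abcg3 kept its call there (adjusted p = 0.0452).

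The rises of this paragraph are named after their values were seen. The tetraspanin Tspan13 had 32777, 26888 and 22800 in transplanted libraries, against 5835, 6197 and 9852 in spontaneous ones (1.94 ± 0.37, adjusted p = 0.0342). Rtn4rl1, a relative of the Nogo receptor, had 4775, 5999 and 10344 in transplanted libraries, against 1495, 687 and 2004 in spontaneous ones (2.39 ± 0.42, adjusted p = 0.0219). The others were Stard4, a cholesterol carrier (3.17 ± 0.61), Zfp658 (2.16 ± 0.40), Pcmtd2 (1.70 ± 0.33), Oxr1 (1.16 ± 0.24) and Mgat5b, a glycosyltransferase gene with 64 reads in transplanted and 2 in spontaneous libraries. None of these 5 kept its call with sex as a covariate, where adjusted p was 0.0539 to 0.0716. Mgat5b passed the filter only through the transplanted libraries. In that limma-trend fit Tspan13 also lost its call (adjusted p = 0.0538), whereas Rtn4rl1 kept its call (adjusted p = 0.0343).

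Genes known from T and NK cells made up another set of rises. Cd2, an adhesion molecule of T and NK cells, had 238, 406 and 8.20 in transplanted libraries, against 0, 3.74 and 0 in spontaneous ones (5.84 ± 1.13, adjusted p = 0.0342). Sh2d2a, a T cell adaptor, had 155, 684 and 16.4 in transplanted libraries, against 0, 11.2 and 0 in spontaneous ones (5.74 ± 1.09, adjusted p = 0.0342). Gimap7, a GTPase of lymphocytes, had 200.1, 270 and 5.96 in transplanted libraries and no read in spontaneous ones, at least 43.3-fold higher (adjusted p = 0.00893). The NK receptor gene Klrc1, chosen after its values were seen, had 43.5, 97.8 and 6.71 in transplanted libraries and no read in spontaneous ones, at least 13.5-fold higher (adjusted p = 0.017). Rnf125, a ubiquitin ligase, had 82.6, 143 and 22.4 in transplanted libraries, against 1.12, 0 and 1.61 in spontaneous ones, a pooled ratio of 89.52 (95% exact counting interval 24.47 to 744.2, adjusted p = 0.0444).

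In each of these 5 genes transplanted replicates 1 and 2 were above replicate 4. The marker list of T and NK cells moved with them. Its 22 genes in the table summed to 4851, 7279 and 1078 normalised counts in transplanted libraries, against 949, 812 and 735 in spontaneous ones. In 17 of the 22 genes transplanted replicates 1 and 2 were both above every spontaneous library, as were 11.9% of all tested genes, and in 3 all transplanted libraries were, beside 7.49% of all. Of the 22 genes 1 was called, Cd2, beside 0.163% of all tested genes called higher. The median log2 fold change was 3.39, and 0.38 without transplanted replicates 1 and 2. The list summed to 267550 to 298870 in the 4 MDM libraries of transplanted type 1 tumours and to 17272 and 35438 in the 2 of spontaneous ones. Cd3g, a defining T cell gene, had 261, 336 and 2.24 in transplanted microglia, against 4.46, 2.80 and 0 in spontaneous microglia (4.58 ± 1.23, adjusted p = 0.131). The part of T and NK cell RNA in the called rises was not tested. In bulk libraries more cells of a type and more RNA per cell cannot be told apart. Without transplanted replicates 1 and 2 the difference was 2.45 for Cd2, 2.80 for Gimap7, 2.92 for Sh2d2a, 2.95 for Klrc1 and 3.72 for Rnf125. There it was 2.49 for Gnpda1, 5.30 for Gbp2b and 7.016 for Nlrp1a. Since replicates 1 and 2 were above replicate 4 in the first 5 genes, leaving them out lowers those differences by construction. In that fit the single transplanted library was taken to vary like the other groups.

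**Figure D3:**
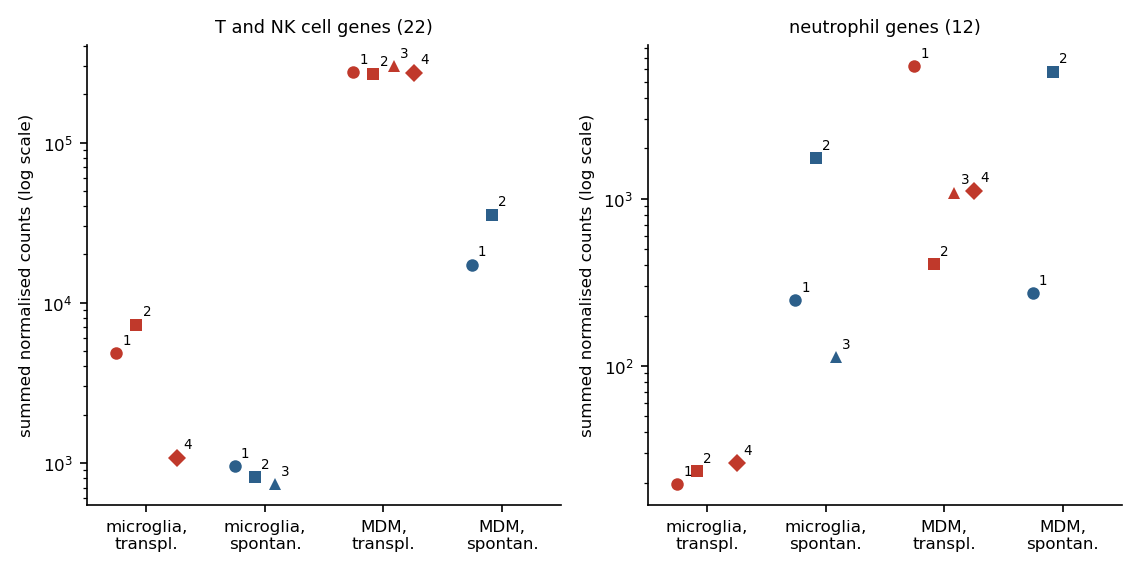
Summed normalised counts of 22 T and NK cell genes and of 12 neutrophil genes in each type 1 library, on a log axis; red marks are transplanted, blue marks spontaneous, and the number is the replicate. Among microglia, transplanted replicates 1 and 2 reached 4851 and 7279 for T and NK cell genes, and spontaneous replicate 2 reached 1743 for neutrophil genes.

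The falls included 3 genes known from activated macrophages. Spp1, which encodes osteopontin, a matrix protein bound by CD44 and integrins, had 4345, 7915 and 4930 in transplanted libraries, against 190397, 329333 and 26586 in spontaneous ones (-4.42 ± 0.80, adjusted p = 0.0252). Chil3, a chitinase-like protein also called Ym1, had 0, 4.38 and 0.745 in transplanted libraries, against 2017, 49274 and 169 in spontaneous ones (-10.25 ± 1.88, adjusted p = 0.0285). Arg1, the arginase of alternatively activated macrophages, had 2 reads in transplanted libraries and 1472 in spontaneous ones, with 213, 1191 and 11.3 normalised counts there. Its pooled ratio was 838.6 lower in transplanted tumours (95% exact counting interval 231.7 to 6931, adjusted p = 0.045). In all 3 genes the spontaneous libraries spread widely, with replicate 2 highest and replicate 3 lowest, while every transplanted library was low. With sex as a covariate in limma-trend Spp1 kept its call (adjusted p = 0.0115). Chil3 and Arg1 lost theirs there (adjusted p = 0.0538 and 0.0615).

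The list of monocyte-derived macrophages moved with these genes. It had 1 of 34 genes called (Chil3), beside 0.105% of all tested genes called lower, and 32 negative fold changes. Of its genes 13 were lower without overlap, beside 6.65% of all tested genes, and the median was -2.05. Its summed level was 105480 to 170120 in transplanted libraries and 147170 to 324540 in spontaneous ones, the highest in replicate 2, which led in 29 of the 34 genes. Without spontaneous replicate 2 the median was -0.91, and there Chil3 differed by -8.12 (adjusted p = 0.0775), Arg1 by -5.24 (adjusted p = 0.109) and Spp1 by -3.68 (adjusted p = 0.075). Ccr2, the chemokine receptor of inflammatory monocytes, had 245, 139 and 98.4 in transplanted libraries, against 695, 2691 and 37.1 in spontaneous ones, which overlapped (-1.46 ± 1.06, adjusted p = 0.62). F13a1, a coagulation factor subunit of monocytes and border macrophages, had 0, 10.2 and 0 in transplanted libraries, against 70.3, 3738 and 24.2 in spontaneous ones (-6.40 ± 1.40, adjusted p = 0.0567). The part of MDM RNA in these falls was not tested.

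Of 10 tested neutrophil genes 0 were called, and 7 had a negative and 2 a positive fold change. Of the 10, 4 were lower without overlap, beside 6.65% of all tested genes. The 12 genes on the list summed to 19.6, 23.3 and 26.1 in transplanted libraries, against 248, 1743 and 113 in spontaneous ones, where replicate 2 was highest, and 6 of the 12, among them S100a8, Retnlg and Mmp8, had no read in any transplanted library. The elastase gene Elane and the peroxidase gene Mpo had none in either group. Dendritic cell genes had 0 of 14 called and a median of -0.95. B cell genes had 0 of 8 called and a median of 1.85 (-0.54 without transplanted replicates 1 and 2 and spontaneous replicate 2), astrocyte and neural stem cell genes 0 of 17 and 0.53, and genes of oligodendrocyte progenitors and tumour cells 0 of 11 and 0.25. Siglec1 is a sialic acid receptor of border-associated macrophages that interferon also raises. It was the 1 called of 13 genes on the border macrophage list, beside 0.105% of all tested genes called lower. Siglec1 had 92.4, 101 and 207 in transplanted libraries, against 1933, 6404 and 509 in spontaneous ones (-3.88 ± 0.69, adjusted p = 0.0252). The median of that list was -0.61, and -1.57 without transplanted replicates 1 and 2 and spontaneous replicate 2. Of its 13 genes 5 were lower without overlap, beside 6.65% of all tested genes, and 0 higher. Mrc1, its mannose receptor, overlapped between groups at 222, 149 and 51.4 in transplanted libraries, against 16.7, 123 and 158 in spontaneous ones (0.77 ± 0.69, adjusted p = 0.694).

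Gdpd3, a glycerophosphodiester phosphodiesterase gene, was the fall with the smallest p. It had 84.8, 134 and 106 in transplanted libraries, against 1882, 1615 and 5600 in spontaneous ones (-4.58 ± 0.50, adjusted p = 0.000389). Gdf3, a ligand of the TGF-beta superfamily, had 0, 29.2 and 0 in transplanted libraries, against 123, 176 and 266 in spontaneous ones (-5.85 ± 1.06, adjusted p = 0.0252). With sex as a covariate in limma-trend Gdpd3 kept its call (adjusted p = 0.00122) and Gdf3 lost its call (adjusted p = 0.0504). Without transplanted replicates 1 and 2 and spontaneous replicate 2 the difference was -4.93 for Gdpd3 and -7.51 for Gdf3. That fit held a single transplanted library. Thg1l, which adds a guanosine to histidine tRNA, had 88.1, 165 and 82.7 in transplanted libraries, against 653, 486 and 503 in spontaneous ones (-2.34 ± 0.35, adjusted p = 0.00653).

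Other falls concerned signalling and glycosylation. The chemokine Cxcl14 had 158, 286 and 313 in transplanted libraries, against 1721, 1758 and 774 in spontaneous ones (-2.45 ± 0.50, adjusted p = 0.045). Bambi, a decoy receptor that dampens TGF-beta signals, had 50.02, 206 and 92.4 in transplanted libraries, against 398, 526 and 522 in spontaneous ones (-2.27 ± 0.45, adjusted p = 0.038). Galnt9, a glycosyltransferase of mucin-type chains, had 0, 14.6 and 0 in transplanted libraries, against 48.0, 72.9 and 51.6 in spontaneous ones (-4.53 ± 0.94, adjusted p = 0.0494). A4galt, which makes the globoside Gb3, had 2 reads in transplanted libraries and 511 in spontaneous ones (pooled ratio 291.1 lower, 95% exact counting interval 80.17 to 2410, adjusted p = 0.0365). The membrane protein gene Emp1 had 1 read against 1558, most of them in spontaneous replicate 2, which stood at 1399 normalised counts (adjusted p = 0.0453). Stum (at least 11.2-fold lower), 9330179D12Rik (at least 16.1-fold) and Gm2036 (at least 6.75-fold) had no read in any transplanted library. These 3 and Abhd11 are given after their values were seen, as are the other calls LOC115490200, A330076H08Rik, Gm35828, Gm43305 and LOC118567460. Abhd11, a hydrolase gene of mitochondria, differed by -1.39 ± 0.28 (adjusted p = 0.0411). With sex as a covariate in limma-trend, Cxcl14, Bambi, Galnt9, A4galt, Emp1, Stum, Gm2036 and Abhd11 lost their calls (adjusted p = 0.0539 to 0.0723).

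Genes of homeostatic microglia were not called, 0 of 30, with 27 positive fold changes and a median of 0.42. Over all tested genes 8594 fold changes were positive and 8372 negative. On this list 8 genes were higher without overlap, beside 7.49% of all tested genes. P2ry12, an ADP receptor that guides microglial processes to injury, had 99514, 81082 and 108272 in transplanted libraries, against 48309, 12893 and 51666 in spontaneous ones (1.59 ± 0.90, adjusted p = 0.51). Tgfbr1, the TGF-beta receptor that keeps microglial identity, had 19022, 12905 and 42758 in transplanted libraries, against 9339, 9017 and 5474 in spontaneous ones (1.503 ± 0.54, adjusted p = 0.268). These 2 and the transcription factor Sall1 (0.53 ± 0.80, adjusted p = 0.832) did not overlap, whereas Cx3cr1 (-0.38 ± 0.35, adjusted p = 0.701) and Itgam (0.43 ± 0.49, adjusted p = 0.768) did. The 27 genes of disease-associated microglia had 1 call, Spp1, beside 0.267% of all tested genes. Their fold changes were negative in 20 and positive in 7. Of the 27, 4 were lower without overlap and 1 higher, beside 6.65% and 7.49% of all tested genes. The median was -0.28, and -0.72 without transplanted replicates 1 and 2 and spontaneous replicate 2. Apoe, the lipid carrier of that programme, differed by -0.97 ± 0.68 (adjusted p = 0.609), the lysosomal glycoprotein gene Gpnmb by -2.74 ± 1.09 (adjusted p = 0.329) and the beta-glucan receptor gene Clec7a by 0.82 ± 0.36 (adjusted p = 0.384).

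Among other pathways, immunosuppressive and alternative activation genes had 2 of 23 called, Chil3 and Arg1, and a median of -0.63. Of all tested genes 0.105% were called lower. The checkpoint ligand Cd274 overlapped between the groups (0.71 ± 0.65, adjusted p = 0.706). The other pathway lists had no call and medians between -0.76 (extracellular matrix remodelling) and 0.26 (complement). Oxidative phosphorylation genes were negative in 29 of 30 members with a median of -0.37. Of the 30, 1 was lower without overlap and 1 higher, beside 6.65% and 7.49% of all tested genes. Their mean level, in log2(normalised count + 1), was 12.08, 12.05 and 11.58 in transplanted libraries, against 12.13, 11.71 and 12.91 in spontaneous ones, so that the groups overlapped and spontaneous replicate 3 was highest. Without transplanted replicates 1 and 2 and spontaneous replicate 2 the median was -1.003. Glycolysis and hypoxia genes were positive in 21 of 28 with a median of 0.25. Proliferation genes had a median of -0.21, and Mki67, present in dividing cells, overlapped between the groups (0.20 ± 1.04, adjusted p = 0.968). Members near the threshold were Cfp, which encodes properdin (-2.84 ± 0.68, adjusted p = 0.0895), the ectonucleotidase CD39 gene Entpd1 (1.19 ± 0.26, adjusted p = 0.0567), the growth factor Hbegf (2.22 ± 0.57, adjusted p = 0.113) and Klf4 (-2.40 ± 0.62, adjusted p = 0.115).

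**Figure D4:**
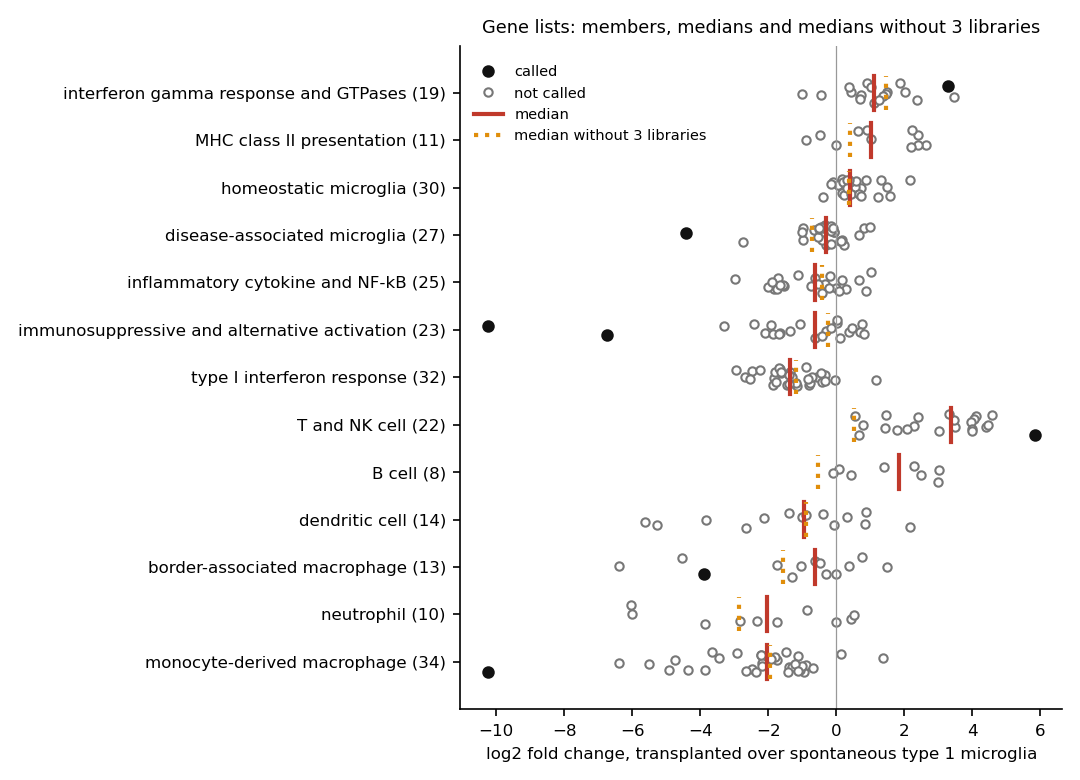
Log2 fold change, transplanted over spontaneous type 1 microglia, of each tested member of 13 gene lists; the number tested stands in brackets, filled marks are called genes, red bars list medians and dotted bars medians without transplanted replicates 1 and 2 and spontaneous replicate 2. Medians of 1.12 and 1.03 for interferon gamma and MHC class II genes stand opposite -1.37 for type I interferon genes, and the T and NK cell median is 3.39 with all libraries and 0.52 without the 3.

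The same contrast was read in microglia of type 2 tumours, which are other samples: transplanted replicates 1, 2 and 3 against spontaneous replicates 1, 2 and 3. There 96 genes were called (0.558%), 40 higher and 56 lower, or 57 higher and 38 lower after rescaling to the same total. Of the 28 genes called higher in type 1, 25 had the same sign in type 2 8 were called in the same direction, against 0.232% of all genes, and 18 were higher without overlap, against 9.9% of all genes. Of the 18 called lower, 16 had the same sign 4 were called in the same direction, against 0.325% of all genes, and 7 were lower without overlap, against 8.1% of all genes. The 8 shared rises were Gbp2b, Gbp8, Nlrp1a, Nlrp1c-ps, Esr1, Enpp5, Sh2d2a and Gimap7, and the 4 shared falls Spp1, Cxcl14, Thg1l and Bambi.

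In type 2 microglia Gbp2b had 449, 3045 and 218 in transplanted libraries and no read in spontaneous ones (adjusted p = 5.51e-05). Spp1 differed there by -6.12 ± 0.80 (adjusted p = 0.000954) and Esr1 by 5.09 ± 0.64 (adjusted p = 0.000753). MHC class II and interferon gamma genes had larger medians in type 2, 1.90 and 2.21, and some of their members were called: H2-Ab1 (3.44, adjusted p = 0.0193), H2-Aa (3.71, adjusted p = 0.0152) and Cxcl9 (3.65, adjusted p = 0.0234). The type I interferon list had a median of 0.08 in type 2, and the monocyte-derived macrophage list 0.36. No member of these 4 lists passed the test of the difference between tumour types.

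**Figure D5:**
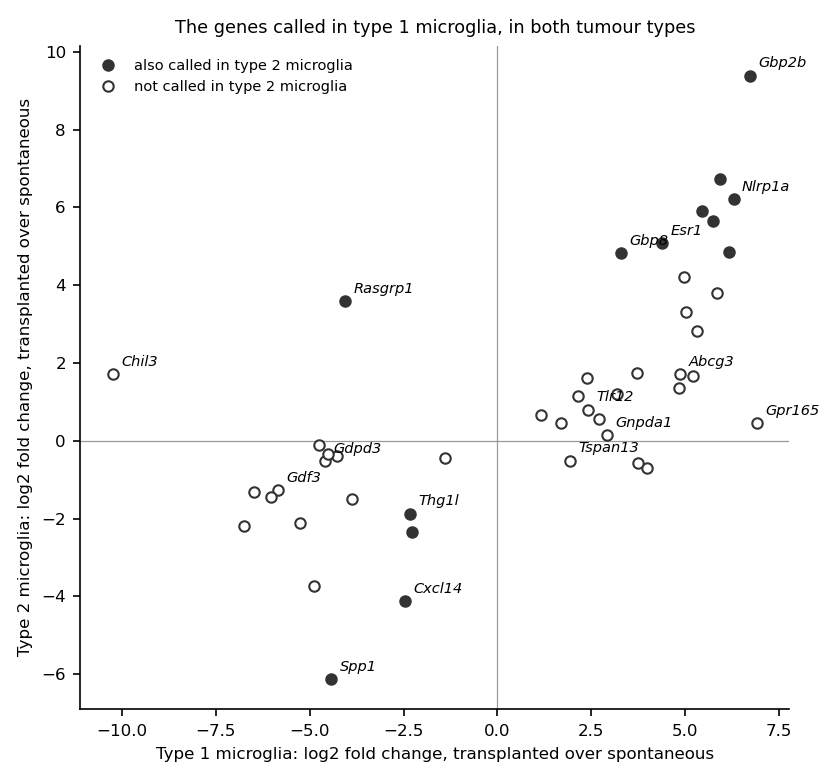
Log2 fold change, transplanted over spontaneous, of the 46 genes called in type 1 microglia (horizontal) and the same contrast in type 2 microglia (vertical); filled marks are genes also called in type 2. Gbp2b, Nlrp1a and Esr1 lie high on both axes and Spp1 low on both, Gnpda1 and Gdpd3 lie near 0 on the type 2 axis, and Rasgrp1 is called in opposite directions.

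The difference between the tumour types, tested as an interaction, was called for 2 of 17216 genes (0.0116%), 1 in each direction (0.00581% each), and 1088 genes had an unadjusted p under 0.05 (6.32%). Wdfy1, an adaptor in Toll-like receptor signalling, had 2812, 2425 and 2594 in transplanted type 1 libraries, against 2861, 2903 and 3151 in spontaneous type 1 libraries. In type 2 microglia it had 776, 551 and 509 in transplanted libraries, against 4121, 3671 and 3077 in spontaneous ones. The difference of the 2 differences was 2.39 ± 0.34 (adjusted p = 0.0138). Rasgrp1, an activator of Ras, had no read in transplanted type 1 libraries and 12.3, 12.2 and 25.8 in spontaneous ones, at least 5.09-fold lower. In type 2 it had 24.6, 47.2 and 61.0 in transplanted libraries, against 19.5, 1.15 and 0 in spontaneous ones (interaction adjusted p = 0.0138).

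Gnpda1 and Gdpd3 came next, with an interaction adjusted p of 0.0614 each. Gnpda1 had 4155, 2983 and 5909 in transplanted type 2 libraries and 5613, 3774 and 2519 in spontaneous ones, so that the 3 spontaneous type 1 libraries were the lowest of the 12 microglia libraries. Gdpd3 had 82.8, 78.5 and 62.5 in transplanted type 2 libraries and 135, 110 and 83.0 in spontaneous ones, and its 3 spontaneous type 1 libraries were the highest of the 12. With limma-trend the interaction was called for 0 genes without spontaneous type 1 replicate 2 (967 at an unadjusted p under 0.05), transplanted type 1 replicate 1 (965), transplanted type 2 replicate 2 (904) or transplanted type 2 replicate 3 (976).

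The type 1 MDM libraries, 4 from transplanted and 2 from spontaneous tumours, were set beside the same genes. Of the 28 genes called higher in microglia, 17 were higher in every transplanted MDM library than in both spontaneous ones (20.4% of all tested genes were), and of the 18 called lower 12 were lower (19.3% of all). Type 1 microglia and MDM libraries with the same replicate number were of the same sex and may come from the same tumours, so the MDM values are no independent support. The fit took all 21 libraries as independent; with microglia libraries only, 22 genes were called, 13 of them among the 46. Gbp2b had 966, 635, 537 and 378 in transplanted MDM, against 0.814 and 1.30 in spontaneous MDM. Gdpd3 had 43.2, 20.96, 38.1 and 60.3 in transplanted MDM, against 2125 and 2970 in spontaneous MDM. Nlrp1a had 110, 111, 88.4 and 201 in transplanted MDM, against 14.7 and 15.6 in spontaneous MDM. These 3 genes thus separated the models in both sorted cell types, while Gpr165 stood at 0 to 0.8 in the 6 MDM libraries. The strain and genotype of the hosts are not given, and their part in these values was not tested.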

How the data were processed

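Microglia of 3 transplanted and 3 spontaneous type 1 tumours were compared. The authors deposited variance-stabilised, log2-like values for 30749 genes in 21 libraries, a unit read from the values (a shared floor of 4.2203 for genes without reads). STAR 2.7.8a, the build mm10 and DESeq2, without a version, are named in the submitters' processing notes. RNA was extracted with TRIzol and chloroform and miRNeasy Micro kits and amplified with SMART-Seq v4, per the labels' protocols. The strand of the reads is not given in the sources used here, so overlapping genes on opposite strands may share reads. Similar members of the Gbp, Nlrp1, Klr, Gimap and H2 families may also share reads.

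The deposited log2 values were inverted in closed form. All came back as whole reads within 1e-06, with size factors equal to median-of-ratios factors. Reads divided by size factors are the normalised counts. The 6 libraries held 30787372 to 50365607 reads, and intervals and floors cover counting error only. The filter asked for 10 or more normalised counts in 3 or more libraries and passed 17216 genes. On log2(normalised count + 1), limma-trend estimated a separate mean per group of tumour type, model and cell type, a choice kept from the design although the table held log2 values rather than normalised counts. The fit was tested on simulated data. A gene without reads in a group has its fold given as a bound against 3 reads per library, and one with 1 to 3 reads as a pooled ratio with its exact counting interval. Sex was read from Xist and Y-linked genes. Alternatives were other pseudocounts, filters, scalings, weights, fits and left-out libraries.

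The members were taken by their labels alone. Both that choice and the gene lists were made with earlier results of these data known. Named genes were, by fitted fold, the top 12 calls in each direction whose higher group averaged 50 or more and which carry a proper symbol, up to 4 members with the smallest p of each list, 16 fixed genes and the 5 smallest p of the interaction. Others are said to be chosen after their values were seen. Positions and promoters came from RefSeq GRCm38.p6, which matched 97.9% of tested symbols. Fits used limma 3.58.1 under R 4.3.3, and tables and plots used pandas 2.3.3 with numpy 2.4.6, matplotlib 3.10.9 and scipy 1.17.1 under python 3.11.15. The 4 normal brain microglia samples were not analysed here. The values of 1 member of the type I interferon list are not reported here.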

Additional observations from a re-analysis of the deposited data

Results flagged for a closer look

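The difference between transplanted and spontaneous microglia was itself different between the tumour types, by the interaction test, for Wdfy1 and Rasgrp1. For Wdfy1 the type 1 difference minus the type 2 difference was 2.39 (log2), from -0.19 in type 1 and -2.58 in type 2, and the groups overlapped in neither tumour type. For Rasgrp1 it was -7.65 as fitted, a value that depends on the added count because no transplanted type 1 library held a read. Both had an adjusted p of 0.0138 with limma-trend.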

How the results depend on the processing

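Of 1893 values of single genes under the alternatives, 1433 kept their direction and side of the threshold and 12 reversed. Of 714 values of list medians, 44 moved by more than the spread and 43, of 16 of the 34 lists, changed sign, among them MHC class I, B cell, proliferation and complement genes. For type 1, 46 calls became 846 with array weights, 13 with voom, 22 with microglia libraries only, 20 with sex as covariate and 7 with only the compared groups. They became 4 without transplanted replicates 1 and 2 and spontaneous replicate 2, and 2 without transplanted replicates 1 and 2, chosen after seeing the data; in both the lone transplanted library is assumed to vary like other groups. Leaving out 1 library gave 17 to 95 calls for type 1, 31 to 787 for type 2 and 0 to 12 for the interaction. Type 2 gave 1848 calls with array weights and 60 with voom. The interaction gave 182 with array weights, 1 with a pseudocount of 8, 1 with voom, and 0 with microglia libraries only, without the 3 libraries and without transplanted type 1 replicates 1 and 2 (limma-trend, 866, 605 and 546 at an unadjusted p under 0.05). The causes were not tested.

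Same-numbered type 1 microglia libraries correlated at -0.029 and -0.037 after group means, so the number was not taken to pair them, although with 2 pairs a shared origin cannot be told apart from none. With it as a replicate block, 35 genes were called for type 1, 28 of them among the 46, 91 for type 2 and 0 for the interaction (1150 at an unadjusted p under 0.05).

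The 12 reversed values were all of single genes not called. Tmem119 was -0.26 without the 3 libraries and -0.070 without transplanted replicates 1 and 2, and -0.0026 to 0.34 with 1 library left out. Mrc1 was -0.018 and -0.43 in the same 2 fits and -0.22 to 1.37 with 1 left out. Mki67 was -2.15 with array weights and -0.68 to 1.61 with 1 left out. Itgam ranged over -0.11 to 0.80 and Cd274 over -0.22 to 1.67. With 3 libraries a group, the sexes unbalanced and other cells' transcripts in some libraries, a gene that missed the threshold is not shown to be equal.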
